A study of Mus musculus with 4 samples.

Results

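Toll-like receptors are membrane proteins that sense microbial and damaged-self molecules, at the cell surface (Tlr1, Tlr2, Tlr4) or in endosomes (Tlr3, Tlr7, Tlr9). Cd14 hands ligands to them, and the adaptors Tirap, Myd88 and Ticam1 carry the signal to the kinases that switch on inflammatory and interferon genes. Macrophages are among the cells that use these receptors most. Mettl3 is the catalytic subunit of the complex that writes N6-methyladenosine (m6A), a methyl mark on messenger RNA that is known to be densest around stop codons and in long internal exons. The 10 genes named here were taken by symbol from the deposited m6A peak lists, the differential peak table and the gene expression table, among 14804 genes with a listed peak in either genotype.

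The cells were macrophages grown from C57BL/6 bone marrow with M-CSF for 7 days and then kept for 24 hours together with MC38, a line of mouse colon carcinoma cells. The Mettl3 cKO group (Mettl3fl/fl,LyzM-cre) carries loxP-flanked Mettl3 and a Cre recombinase under the lysozyme M promoter, a promoter of myeloid cells. The WT group (Mettl3fl/fl) carries the same loxP-flanked alleles without Cre, so the presence of Cre and the loss of Mettl3 cannot be told apart. Each genotype gave 1 m6A IP library and 1 input library, all 4 after co-culture, and whether tumour cells were removed before RNA extraction is not given in the sources used here. With 1 library per group there is no replicate error for any value, and the only p-values are the authors' own, which compare these libraries.

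The labels were checked on the targeted gene and on cell type markers. Mettl3 held 4 listed peaks in the cKO and 2 in the WT, was absent from the authors' deposited table of differential peaks and had no input value here, so the deletion itself was not checked. All 8 macrophage markers had a listed peak, and the 6 with an input value summed to 2986 FPKM in the cKO and 4510 FPKM in the WT, with 4 lower and 2 higher in the cKO. Most of that gap was Lyz2, whose promoter drives the Cre, at 1980 FPKM in the cKO and 3393 FPKM in the WT. The other 5 summed to 1006 FPKM in the cKO and 1117 FPKM in the WT, with 3 lower and 2 higher. The 4 mesenchymal markers with a value (Col1a1, Col3a1, Dcn and Sparc, of 5 in the list) summed to 193 FPKM in the cKO and 107 FPKM in the WT, all 4 being higher in the cKO. Of the 5 epithelial markers only Krt19 had a value, 10.8 FPKM in the cKO and 7.05 FPKM in the WT. S100a8 was the only neutrophil marker of 5 with a value, at 13.7 FPKM in the cKO and 12.3 FPKM in the WT. The T and B cell markers Cd3d and Cd79a summed to 0.642 FPKM in the cKO and 1.10 FPKM in the WT, and none of the 4 dendritic cell markers had a value. The part of this shift in markers in the results below was not tested.

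The transcripts of Tlr1, Tlr2, Tlr4, Tlr7 and Cd14 lay almost wholly inside listed m6A peaks in both genotypes. The 9 sites printed here show where the best-known m6A word, GGACT, falls inside peaks listed in both genotypes. Each is 29 bases of transcript, 5′ to 3′, from GENCODE M21 on mm10, with GGACT in capitals, and the gene's strand follows the position. The sites were taken from the 2 GGACT words nearest the stop codon in each peak. Tlr2 and Tlr3 are shown as strongly enriched peaks, Tlr4 because its peak was the strongest of the group and holds sites on both sides of the stop codon, Ticam1 because its site lies just past the stop codon, Tirap because its strongest peak is in the 3′ UTR, and Tlr1 because its site lies in sequence shared with Tlr6.
Tlr2 site 1, chr3:83836728-83836756, minus: tctccacaagcgGGACTtcgttccgggca
Tlr2 site 2, chr3:83836608-83836636, minus: caagtacgaactGGACTtctcccacttca
Tlr4 site 1, chr4:66841008-66841036, plus: gagtcagaatgaGGACTgggtgagaaatg
Tlr4 site 2, chr4:66842420-66842448, plus: atactctctgaaGGACTtgagaacatttt
Tlr3 site 1, chr8:45397467-45397495, minus: cctagaagaaagGGACTttgaagcaggcg
Tlr3 site 2, chr8:45397445-45397473, minus: gcaggcgtccttGGACTtgaagcaattgt
Ticam1 site 1, chr17:56269838-56269866, minus: agtgacaagattGGACTtcacctgggtcc
Tirap site 1, chr9:35187698-35187726, minus: ggaagaagatggGGACTccccaagaaggg
Tlr1 site 3, chr5:64925504-64925532, minus: aactgcactgagGGACTtccacatgtctc

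In the Tlr2 sites GGACT starts 324 and 204 bases before the end of the stop codon. In the Tlr3 sites it starts 342 and 320 bases before that point. Neither gene has its GGACT words there alone. The 6 in the Tlr2 WT peak lie 2627 to 204 bases before that point. The 6 in the main Tlr3 WT peak lie 1757 to 320 bases before it, and the first Tlr3 peak of the cKO held 1 more. In the Tlr7 peak the 3 words lie 3006, 2780 and 1221 bases before the end of the stop codon. In the first Tlr4 site GGACT starts 459 bases before the end of the stop codon. In the second it starts 953 bases after that point, in the 3′ UTR. GGACT starts 41 bases after the end of the stop codon in the Ticam1 site and 197 bases after it in the Tirap site. GGACT was counted on the transcript strand over the annotated exons between a peak's outer ends, and a match is a description of the letters, not a measured methylated base. It occurred in 11 of the 20 cKO peaks and 9 of the 15 WT peaks of these genes, against 34.1% of all cKO peaks and 35.2% of all WT peaks. These genes' peaks are long, so the density was taken as well, not matched for region though several of these peaks are largely coding. It was 1.76 GGACT per kb in the cKO and 1.69 per kb in the WT. Over all peaks of the same 2 lists the density was 1.20 and 1.22 per kb. Neither comparison is matched for length. For both Tlr1 peaks and the main peaks of Tlr2, Tlr3, Tlr4, Tlr7, Cd14, Tirap and Ticam1, most peaks of like length held GGACT. That share was lowest for the second Tlr1 peak, at 79.7% of cKO peaks and 76.3% of WT peaks. It was highest for the Tlr4 main peak, which held 4 in each genotype, at 96.8% of cKO peaks and 96.4% of WT peaks. Whether the 11 and 9 exceed what peak length gives was not tested. The Myd88 peak held 0 in either genotype, where 22.0% of cKO peaks and 27.1% of WT peaks of like length held at least 1.

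Listed peaks were found in 9 of the 10 genes, 20 in the cKO and 15 in the WT. Tlr9, the endosomal DNA sensor (chromosome 9, 106222598 to 106226883, plus strand), had no entry in either list, and its level was not analysed here. The lists hold only peaks with the authors' p below 0.05, and the log2 IP over input of each peak is the authors' value. The median peak of these genes stood at a log2 of 1.46 in the cKO and 2.11 in the WT, against 1.30 and 1.22 over all peaks of those lists. Its median exonic length was 456 bases in the cKO and 1559 bases in the WT, against 302 and 300 bases over all peaks. These counts and medians are not of matched peaks, since the lists divide the transcripts differently. Tlr4 and Ticam1 each had 3 peaks in the cKO and 1 in the WT, and Tirap had 3 in the cKO and 4 in the WT. Of the 20 cKO peaks 85.0% overlapped a WT peak by at least 1 bp, and of the 15 WT peaks 86.7% overlapped a cKO peak, against 71.3% and 73.2% over the whole lists. With an overlap of at least 50% of both peaks these shares were 50.0% of cKO peaks and 66.7% of WT peaks, against 46.1% and 48.8% over the whole lists.

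The share of each transcript inside peaks shows how broad the signal was. Peaks covered 99.1% of the Tlr1 transcript in the cKO and 97.3% in the WT, 93.7% and 92.9% of Tlr2, and 93.3% and 92.0% of Tlr4. They covered 94.1% of Tlr7 in both genotypes, 95.0% of Cd14 in the cKO and 96.5% in the WT, and 62.3% of Tlr3 in the cKO and 58.4% in the WT. Over all 13714 coding transcripts with a peak in both lists the median was 31.4% in the cKO and 30.9% in the WT. Among the adaptors, Ticam1 was covered to 78.5% in the cKO and 91.9% in the WT, Tirap to 50.9% and 66.5%, and Myd88 to 12.8% and 15.3%. These shares count every annotated exon between a peak's outer ends, since the lists give no exon blocks.

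**Figure D1:**
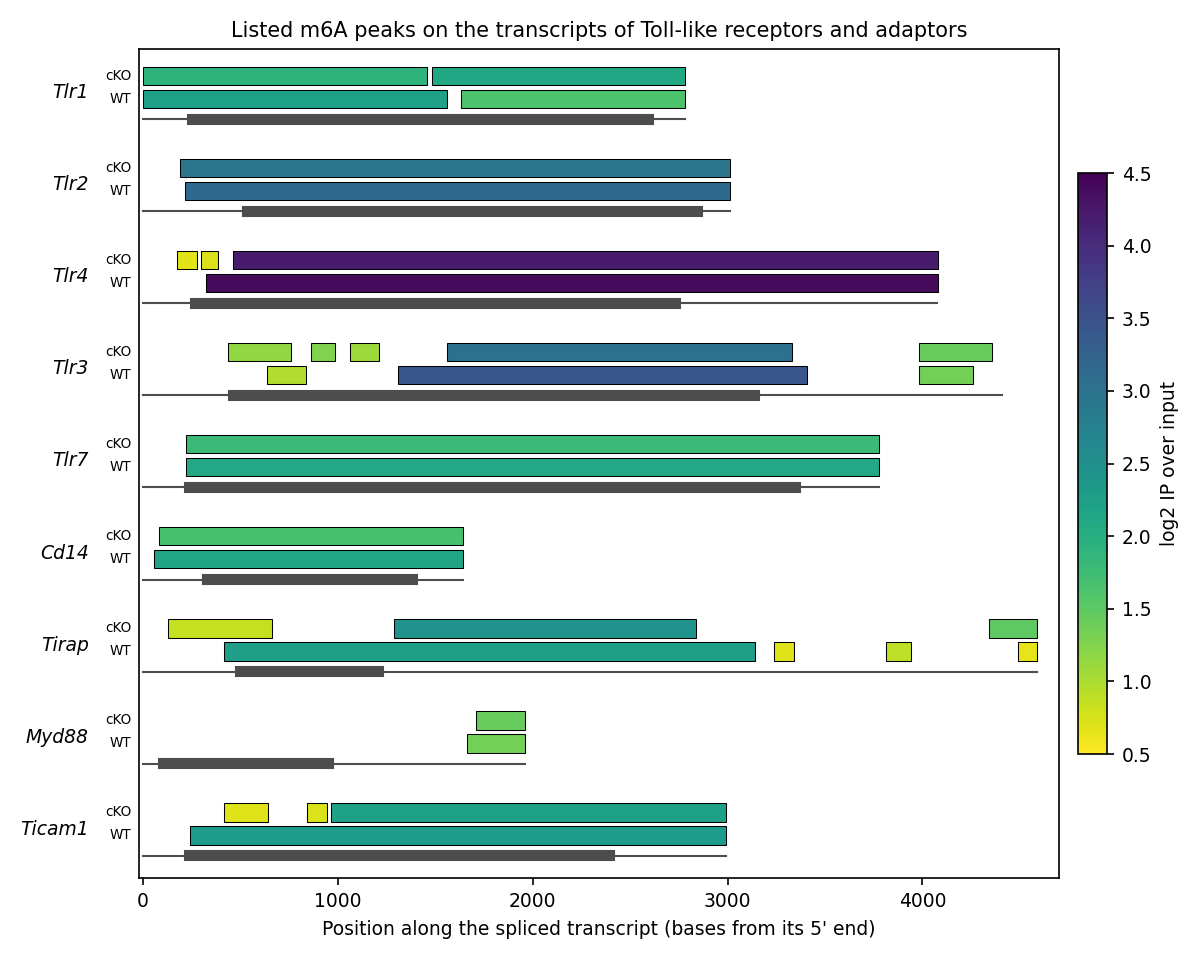
Listed m6A peaks along the spliced transcript of each gene (x axis, bases from the 5′ end), cKO above WT, coloured by the authors' log2 IP over input. The grey line is the transcript and the thick bar its coding sequence. Tlr1, Tlr2, Tlr4, Tlr7 and Cd14 are covered almost end to end in both genotypes, while the Myd88 peak lies at the 3′ end.

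Several peaks that the authors name 3′ UTR consisted largely of coding sequence. The Tlr2 peak was 83.4% coding in the cKO and 84.1% in the WT. Coding bases made up 88.6% of the Tlr7 peak in both genotypes. In the cKO and the WT they made up 90.2% and 88.2% of the Tlr3 main peak, and 63.5% and 64.8% of the Tlr4 main peak. Over all peaks that the authors name 3′ UTR, the median coding share was 0% in both lists, with an upper quartile of 12.5% in the cKO and 17.5% in the WT. Cd14 had the same form, at 70.6% coding in the cKO and 69.5% in the WT, as did the Ticam1 main peak, at 71.6% and 79.1%, and the second Tlr1 peak, at 87.3% and 85.6%. Myd88 differed, with a peak wholly in the 3′ UTR in both genotypes, and the strongest Tirap peak was 100% 3′ UTR in the cKO and 70.1% in the WT. By exon layout, the longest exon holds 100% of the coding sequence in Tlr1, Tlr2 and Ticam1, 99.9% in Tlr7, 99.7% in Cd14, 89.8% in Tlr4 and 68.2% in Tlr3, against 2.67% in Tirap and 0% in Myd88. That exon also holds the stop codon in Tlr1, Tlr2, Tlr4, Tlr7, Cd14 and Ticam1, whose peaks run through it, and in Tirap, and not in Tlr3 or Myd88.

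Of the 9 genes with peaks, 7 had a differential peak lower in the cKO, 1 had one higher and 1 had none, in the authors' deposited table. Among all genes with a listed peak, 49.9% had any differential peak, 28.9% had a differential peak lower in the cKO and 28.3% had one higher. With the authors' adjusted p below 0.05, 6 of the 9 genes had a lower peak and 0 a higher one, against 18% (2666 genes) and 15.3% of all genes. The differences were small: the median of the 8 peaks was -0.39 on the log2 scale. All 8 kept a log2 IP over input above 0 in the cKO.

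Among the cell-surface receptors, Tlr4, the lipopolysaccharide receptor (chromosome 4, 66827584 to 66930284, plus strand), carried the strongest peak of the group. Its main peak stood at a log2 of 4.21 in the cKO and 4.40 in the WT, above 98.5% and 98.4% of the peaks in those lists. At the differential peak the authors' deposited table gives a log2 of 4.10 in the cKO and 4.34 in the WT, a difference of -0.23 with an adjusted p of 1.00e-04. This is a ratio of 0.851 of cKO over WT at a peak that was near the top of both lists. The WT had 1 peak over nearly the whole transcript and the cKO had 3, the 2 extra ones lying at the 5′ end at log2 values of 0.68 and 0.73.

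Tlr2 (chromosome 3, 83836272 to 83841767, minus strand), which pairs with Tlr1 or Tlr6 to sense bacterial lipopeptides, had 1 peak per genotype. It stood at a log2 of 2.92 in the cKO and 3.15 in the WT, above 92.9% and 93.1% of the list. In the authors' deposited table the differential peak had a log2 of 2.88 in the cKO and 3.11 in the WT, a difference of -0.23 with an adjusted p of 1.85e-07.

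Tlr1 (chromosome 5, 64924679 to 64933563, minus strand) was the only gene with a differential peak higher in the cKO. Its peak in the 3′ part of the transcript had a log2 of 2.12 in the cKO and 1.59 in the WT in the authors' deposited table, a difference of 0.53 with an adjusted p of 0.120, which did not pass 0.05. The first peak, in the 5′ part, went the other way in the lists, at 1.92 in the cKO and 2.24 in the WT. Part of Tlr1 cannot be told apart from Tlr6: 150-base words shared with Tlr6 span bases 1698 to 2172 of the Tlr1 transcript and make up 38.0% of the differential peak, and 50-base words 55.5%. How the counting assigned reads from that stretch is not given in the sources used here, so this value is uncertain. All 29 bases of the printed Tlr1 site also occur in the Tlr6 transcript.

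Among the endosomal receptors, Tlr3, the double-stranded RNA sensor (chromosome 8, 45395665 to 45411080, minus strand), had the largest receptor difference. Its main peak had a log2 of 2.78 in the cKO and 3.48 in the WT in the authors' deposited table, a difference of -0.70 with an adjusted p of 0.0587, which did not pass 0.05. In the lists that peak stood at 3.00 in the cKO and 3.45 in the WT, above 93.6% and 95.1% of the peaks. Tlr3 was also the lowest of the 8 genes with an input value, at 0.890 FPKM in the cKO and 0.802 FPKM in the WT, and the read counts behind these values were not analysed here. Its weaker peaks were 4 in the cKO, at log2 values of 1.16, 1.26, 1.09 and 1.43 in order from the 5′ end, and 2 in the WT, at 0.98 and 1.35.

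Tlr7, the single-stranded RNA sensor (chromosome X, 167304929 to 167330558, minus strand), had 1 peak with the same outer ends in both genotypes. Its log2 was 1.79 in the cKO and 2.11 in the WT in the lists. In the authors' deposited table the differential peak had 1.72 in the cKO and 2.05 in the WT, a difference of -0.33 with an adjusted p of 2.73e-06. No 50-base word of Tlr7 was shared with its neighbour Tlr8.

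Cd14, the co-receptor that delivers lipopolysaccharide to Tlr4 (chromosome 18, 36725067 to 36726798, minus strand), had the smallest p of the group. Its peak had a log2 of 1.65 in the cKO and 2.11 in the WT in the authors' deposited table, a difference of -0.46 with an adjusted p of 3.99e-120. The size of the difference was like that of Ticam1 and smaller than that of Tlr3. Cd14 was by far the most abundant of the 8 genes with an input value, at 324.5 FPKM in the cKO and 361.5 FPKM in the WT.

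The adaptors differed from each other. Ticam1, which links Tlr3 and Tlr4 to interferon genes (chromosome 17, 56269319 to 56276786, minus strand), had a differential peak at a log2 of 1.87 in the cKO and 2.32 in the WT in the authors' deposited table, a difference of -0.46 with an adjusted p of 8.79e-06. The WT list had 1 Ticam1 peak at 2.31 and the cKO list had 3, the main one at 2.22 and weak ones at 0.70 and 0.72 toward the 5′ end.

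Tirap, the adaptor that brings Myd88 to Tlr2 and Tlr4 (chromosome 9, 35184551 to 35200291, minus strand), differed along its length. Its differential peak, 83.5% coding, had a log2 of 0.46 in the cKO and 1.40 in the WT in the authors' deposited table, a difference of -0.94 with an adjusted p of 0.0426. In the lists, the strongest peak stood at 2.45 in the cKO, where it covers part of the 3′ UTR, and at 2.26 in the WT, where it also covers the coding sequence. At the 3′ end the overlapping peaks were at 1.49 in the cKO and 0.64 in the WT, a difference of 0.85 in the other direction that is not in the differential table. These 3′ end peaks differ in length, 250 bases in the cKO and 100 in the WT, and the WT one had an authors' adjusted p of 0.0497. The WT list also held Tirap 3′ UTR peaks at 0.70 and 0.90 that no cKO peak overlapped. The 3′ end difference is thus between unlike stretches, and each value is from 1 library pair.

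Myd88, the adaptor used by all the receptors named here except Tlr3 (chromosome 9, 119335934 to 119341411, minus strand), had 1 short 3′ UTR peak and no differential peak. Its log2 was 1.44 in the cKO and 1.35 in the WT. It was the weakest of the main peaks of the 9 genes in both genotypes.

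**Figure D2:**
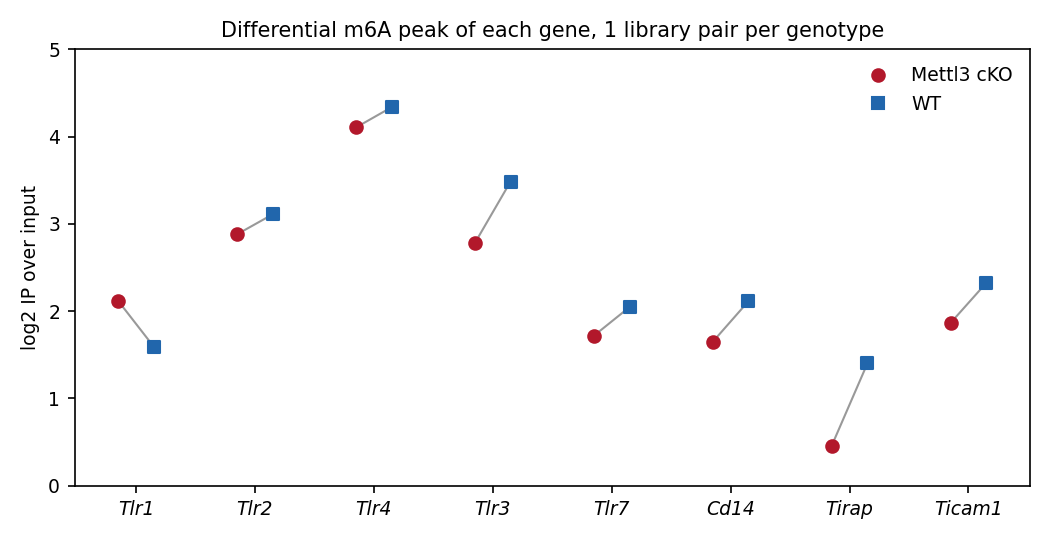
Log2 IP over input (y axis) at the differential peak of each of the 8 genes that have one, in the authors' deposited table, with the cKO at left (red circles) and the WT at right (blue squares), 1 library pair each. The cKO value is lower in 7 genes and higher in Tlr1, where it is 2.12 against 1.59 in the WT.

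The direction was set beside peak strength, because strong peaks were mostly lower in the cKO across the whole table. Of the 10355 differential peaks 51.1% were lower in the cKO, but the share was 29.4% at a mean log2 between 1 and 1.5, 53.8% between 1.5 and 2, 77.7% between 2 and 2.5, 89.6% between 2.5 and 3, and 90.3% between 3 and 3.5. Above 4 it was 69.5%. Ticam1, Tlr2 and Tlr3 lie in the bins at 77.7%, 89.6% and 90.3%, so their direction was that of most peaks as strong. Tlr2 at -0.23 and Tlr4 at -0.23 were closer to 0 than the medians of their bins, -0.45 and -0.41. Cd14 at -0.46 and Tlr7 at -0.33 lie in the bin from 1.5 to 2, where the median was -0.22, and so does Tlr1 at 0.53. Tirap at -0.94 was lower in a bin from 0.5 to 1 where 43.9% of peaks were lower and the median was 0.31. No test set these genes apart from other peaks of like strength.

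**Figure D3:**
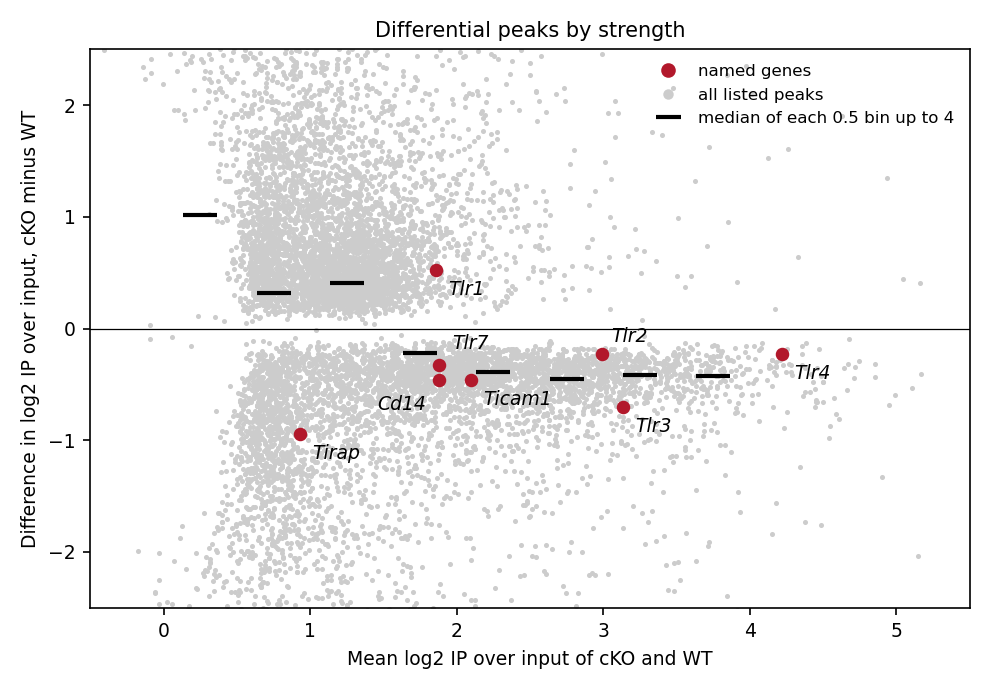
Difference in log2 IP over input, cKO minus WT (y axis), against the mean of both genotypes (x axis) for the differential peaks in the authors' deposited table (grey) and the 8 genes named here (red), with the median of each 0.5 bin from 0 to 4 as a black bar. Axes hold all but 1070 of 10355 peaks. The table lists only peaks with p below 0.05 and has few points near 0, and Tlr2, Tlr3 and Tlr4 sit in the range where most peaks are below 0.

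The split between lower and higher pairs depended on how the peak lists were paired. Where a cKO and a WT peak overlapped one to one by at least 1 bp, 4 pairs of these genes were lower in the cKO and 4 higher, with a median of -0.08, against 45.2% lower over all 19387 pairs. The 4 lower pairs were the main peaks of Tlr2, Tlr3, Tlr7 and Cd14, by 0.23 to 0.47 on the log2 scale. The 4 higher pairs were Tlr3 at its 5′ end (0.19) and 3′ end (0.07), Myd88 (0.08) and the Tirap 3′ end (0.85). Their mean log2 IP over input was 1.07 to 1.40, against 1.91 to 3.23 in the 4 lower pairs. The median over all listed peaks was 1.30 in the cKO and 1.22 in the WT. This rule left out the main peaks of Tlr4, Ticam1, Tlr1 and Tirap, genes in which a peak of one list overlapped more than 1 of the other. With an overlap of at least 50% of both peaks, those of Tlr4, Ticam1 and Tlr1 paired, and the Tlr3 5′ and Tirap 3′ pairs dropped out. By that rule 7 pairs were lower and 3 higher, with a median of -0.21, against 47.2% lower over all 17809 such pairs. The strongest Tirap peak, at 2.45 in the cKO and 2.26 in the WT, was in no pair under either rule.

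The input libraries gave transcript levels for 8 of the 10 genes, because values were held only for genes with a differential peak. In cultures of 2 cell types, fewer macrophages and less RNA per macrophage cannot be told apart. On log2(FPKM + 1), which compresses the changes of weakly expressed genes, 7 genes had a mean of at least 1 FPKM: 6 were lower in the cKO and 1 higher, with a median of -0.23, against 54.2% lower and a median of -0.02 over all 6079 genes tested. Only Tlr2 was past 1.5-fold, where 1.66% of all genes were that much lower and 1.46% that much higher. None of the 7 was past 2-fold, where 0.428% of all genes were lower and 0.411% higher. Tlr2 had 33.1 FPKM in the cKO and 50.5 FPKM in the WT, a difference of -0.59, and -0.57, no longer past 1.5-fold, once the median of all genes was subtracted.

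The other receptors lay closer together. Tlr4 had 10.2 FPKM in the cKO and 13.0 FPKM in the WT, a difference of -0.32 on log2(FPKM + 1). Tlr7 had 14.2 FPKM in the cKO and 16.8 FPKM in the WT, a difference of -0.23. Tlr1 had 2.75 FPKM in the cKO and 3.33 FPKM in the WT, a difference of -0.21. These 3 receptors and Cd14, with a difference of -0.16, were all lower in the cKO, each by less than 1.5-fold. The macrophage markers without Lyz2 had a summed cKO over WT ratio of 0.901, and their part in these values was not tested.

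The adaptors split in the input as well. Tirap had 1.65 FPKM in the cKO and 2.31 FPKM in the WT, a difference of -0.32, or -0.48 as a plain log2 ratio. Ticam1 had 9.83 FPKM in the cKO and 8.88 FPKM in the WT, a difference of 0.13, the only one of the 7 that was higher. The authors' deposited table gives a q-value of 1.0 for each of the 8 genes, and raw p-values from 0.366 (Tlr2) to 0.829 (Cd14). At their differential peaks Tlr2, Tlr4, Tlr7, Cd14 and Tirap were lower in the cKO, and so was their input level. Ticam1 and Tlr3 were lower at that peak and higher in input, Tlr3 at 0.890 FPKM in the cKO and 0.802 FPKM in the WT. Tlr1 was higher at that peak, with the authors' adjusted p at 0.120, and lower in input. Other listed peaks of Tirap and Tlr1 went the other way from their differential peak.

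**Figure D4:**
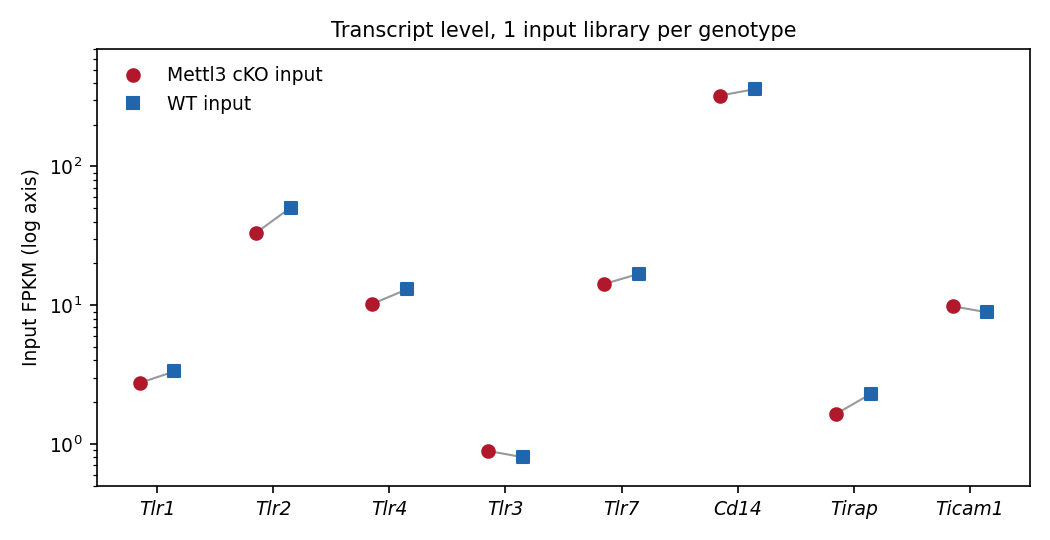
Input FPKM on a log axis for the 8 genes with a value, cKO at left (red circles) and WT at right (blue squares), 1 library each. Cd14 is highest at 324.5 FPKM in the cKO and 361.5 in the WT, and the widest gap is that of Tlr2.

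The remaining genes of the pathway were looked at in 5 lists with 43 genes, of which 38 had a listed peak and 29 a differential peak. Of their 43 differential peaks in the authors' deposited table, 21 were lower in the cKO and 22 higher, and by gene 17 had a lower and 15 a higher peak, some having both. Direction went with strength here too. Every one of these peaks with a mean log2 of at least 2 was lower in the cKO. The higher ones had a mean log2 of at most 1.52 (Trafd1). With the adjusted p below 0.05 the genes were 14 lower and 8 higher. In the input 28 were tested, 20 lower and 8 higher with a median of -0.06, and 0 were past 1.5-fold in either direction.

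The other Toll-like receptors, chosen for naming after their values were seen, had 3 of 6 genes with a peak. Tlr8, another single-stranded RNA sensor, had a log2 of 2.36 in the cKO and 2.84 in the WT in the authors' deposited table, with an adjusted p of 2.19e-04. Tlr13, a bacterial ribosomal RNA sensor, had 2.03 in the cKO and 2.49 in the WT in the authors' deposited table, with an adjusted p of 1.77e-17. Tlr6 had a short 3′ UTR peak at 1.57 in the cKO and 0.58 in the WT in the authors' deposited table, with an adjusted p of 0.130, and its main peak in the lists stood at 2.39 in the cKO and 2.54 in the WT. Tlr5, Tlr11 and Tlr12 had no listed peak.

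Of the 43 genes, Traf6, Ticam2 and Pik3ap1 had differential peaks in both directions within 1 gene. Traf6, the ubiquitin ligase that relays Myd88 signals, had a strong peak at 3.43 in the cKO and 3.90 in the WT. Its adjusted p was 1.63e-17 in the authors' deposited table. A weaker 3′ UTR peak of Traf6 stood at 1.51 in the cKO and 0.44 in the WT (adjusted p of 0.0185). Ticam2, which bridges Tlr4 to Ticam1, had a 3′ UTR peak at 0.10 in the cKO and 1.02 in the WT, with an adjusted p of 0.00200 in the authors' deposited table, and a 5′ UTR peak at 1.70 in the cKO and 1.05 in the WT (adjusted p of 2.48e-05). Pik3ap1, an adaptor to PI3-kinase, had 5 differential peaks in the authors' deposited table, an intronic one with the largest difference of the lists, 2.90 (adjusted p of 0.0364), and an exonic one at -0.85 (adjusted p of 0.00306). Tab3, which holds the kinase Map3k7 to ubiquitin chains, had the largest difference below 0, -1.86, at a 3′ UTR peak. That peak had a log2 of -0.000786 in the cKO and 1.86 in the WT, with an adjusted p of 0.0242 in the authors' deposited table. Tab2, its close relative, had a peak at 2.68 in the cKO and 3.17 in the WT, with an adjusted p of 1.50e-12 in the authors' deposited table. Irak4, the first kinase of the Myd88 complex, had an exonic peak at 1.36 in the cKO and 0.15 in the WT, with an adjusted p of 0.00868 in the authors' deposited table.

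By list, the kinases and ubiquitin ligases had 9 genes with a lower and 5 with a higher peak of 17, and the co-receptors and chaperones 2 and 4 of 8. The other adaptors had 2 and 2 of 4, of which 3 had a listed peak. The brakes, which end the signal, had 2 and 3 of 8, of which 7 had a listed peak. The shares over all genes with a listed peak were 28.9% lower and 28.3% higher. The lists also differ in peaks per gene, which these counts do not take into account: the 17 kinases and ubiquitin ligases held 74 peaks in the cKO and 63 in the WT. Among the brakes, Tnfaip3, a deubiquitinase, had a peak at 2.75 in the cKO and 3.13 in the WT in the authors' deposited table, with an adjusted p of 2.70e-15.

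**Figure D5:**
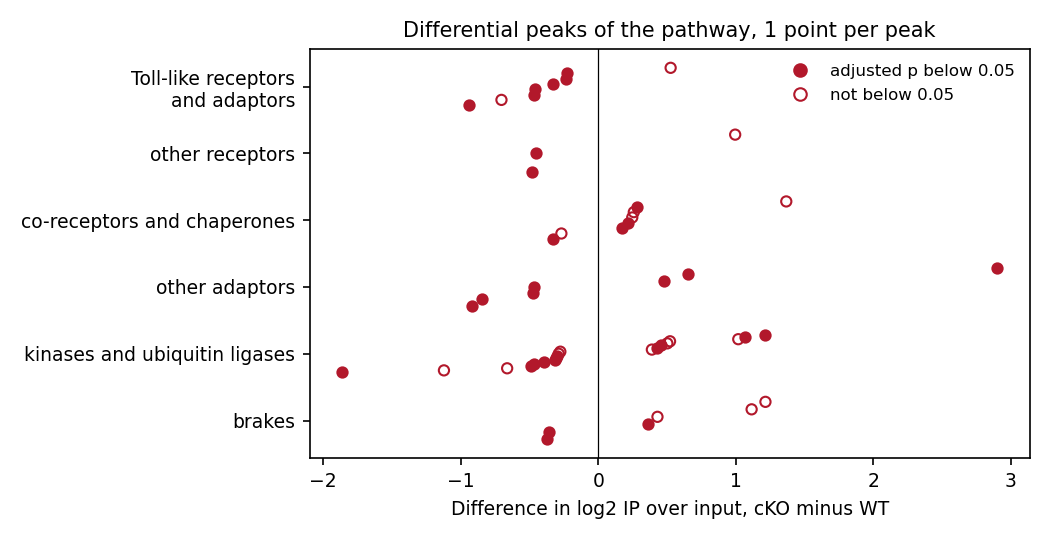
Difference in log2 IP over input, cKO minus WT (x axis), of each differential peak in the authors' deposited table, for the genes named here and the 5 pathway lists, filled where the adjusted p is below 0.05. The top row has 7 of 8 peaks below 0, while the 43 peaks of the 5 lists lie 21 below and 22 above 0. The rows are not matched for peak strength, and every peak of the 5 lists with a mean log2 of at least 2 lies below 0.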

How the data were processed

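The 4 libraries are an IP and an input for Mettl3 cKO and for WT macrophages, grouped by their titles and genotypes. The submitters' processing notes name mm10 as the build and fastp, HISAT2, StringTie, HOMER, ChIPseeker and edgeR as tools, without roles. Neither peak caller nor scaling of IP to input is given in the sources used here, and library depth was not analysed here. The deposited peak lists give, per the file headers, the log2 of IP over input per peak and the authors' p-values, raw and adjusted. The differential table gives both genotypes' log2 values and their difference, and the deposited gene table the authors' input FPKM and q-value. Region names (other columns) are those of the authors. From these, cKO minus WT differences were taken as listed, and log2(FPKM + 1) was used for genes with a mean of at least 1 FPKM. Peak ends were placed on GENCODE M21 transcripts, which held 99.4% of the 20802 transcript identifiers, and the gene starts of 9 of 9 genes with peaks were equal. Overlaps used bedtools 2.31.1 on the same strand. Python 3.11.15 and pandas 2.3.3 were used, and the scripts were tested on simulated data.

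No test was run on 1 library per group. The genes and lists were chosen with earlier results of these data known. The genes named from the pathway lists were the up to 4 per direction with the largest input difference past 1.5-fold (0 genes), and the up to 4 per direction with the largest differential peak at an adjusted p below 0.05 and a mean of at least 1 FPKM. Traf6's stronger peak, Tnfaip3 and the other receptors were added after their values were seen. Alternatives tried were a minimum log2 of 1, stricter p thresholds, a 50% reciprocal overlap, centring on the median, other pseudocounts, a 2-fold threshold, no filter on low values, and the wider DRACH motif.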

Additional observations from a re-analysis of the deposited data

How the results depend on the processing

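The 7 lower differential peaks became 6 at an adjusted p below 0.05 and 0 when an absolute log2 difference of at least 1 was added, and the 1 higher peak became 0 under both. With a 50% reciprocal overlap, 7 pairs were lower in place of 4 because the Tlr4 and Ticam1 main peaks and the first Tlr1 peak then paired one to one, the median was -0.21 in place of -0.08, and 50.0% of cKO peaks had a partner in place of 85.0%. Centred on the median of all pairs, the median of the 8 was -0.12. At 2-fold, 0 of the genes were past the threshold in the input, and with a pseudocount of 0.1 the count of pathway genes higher by 1.5-fold was 1 (Tlr8) in place of 0. The input difference of Tirap was -0.46 with a pseudocount of 0.1 and -0.48 with none, in place of -0.32, and that of Tlr3 was 0.13 and 0.15, in place of 0.07. The macrophage marker sum, as a log2 ratio, was -0.15 without Lyz2 (an alternative chosen after seeing the data), in place of -0.59. The pathway genes with a higher differential peak were 8 at an adjusted p below 0.05 in place of 15. All 20 cKO peaks and 14 of the 15 WT peaks held at least 1 of the 18 words of the DRACH consensus, of which GGACT is 1, in place of 11 and 9 with GGACT. Of 62 recomputed values, 17 moved past the limit used (1.5 times or 0.1 on the log2 scale for differences, 1.5 times for counts, and an exact binomial interval for shares) and 45 did not, and 0 changed sign. An overlap of exon blocks and a motif count over whole genomic spans were not run, since the lists give no blocks and no genome sequence was used here. No paired analysis was possible because each group has 1 library, and no library could be left out.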
